A study of Mus musculus with 30 samples.

Results

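D6-deficient mouse skin was compared between day 1 and day 2 after 3 applications of the inflammatory phorbol ester TPA, across all genes on the array. The comparison used 6 of the 30 arrays of the study, 3 from day 1 (D6 KO1, KO2 and KO3) and 3 from day 2, each labelled as a biological replicate and each from a different mouse. D6 is an atypical receptor that takes up and degrades inflammatory CC chemokines, and the mice lacked it in the whole body. They were females 8 to 12 weeks old on a mixed background derived in part from C57BL/6. WT mice, handled alike, gave the reference groups. TPA was painted at 50 uM in acetone on shaved back skin, 3 times and 24 hours apart, and skin was taken 1, 2, 4 or 6 days later. Day 0 skin of both genotypes received acetone only. Whole back skin was hybridised to Affymetrix mouse whole-genome expression arrays, so epidermis, dermis, hair follicles, fat, muscle and infiltrating cells all contributed to each value. Fewer cells of a type and less RNA per cell cannot be told apart in such samples.

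TPA activates protein kinase C in keratinocytes and starts a sterile inflammation in which vessels open, neutrophils and then monocytes enter the skin, and the epidermis thickens. CXC chemokines that bind the receptor Cxcr2 draw neutrophils, inflammatory CC chemokines draw monocytes and lymphocytes, and D6 removes the CC kind without signalling as a classical receptor does. Type I interferons act through the receptor chains Ifnar1 and Ifnar2 and a complex that includes Stat2 and Irf9, which switches on a broad set of antiviral genes.

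Array medians lay between 5.64 and 5.80 (log2 intensity) and the median SD of a probe set among the 3 replicates was 0.145 at day 1 and 0.139 at day 2 of D6-deficient skin. Skin identity was plain: Krt14, the basal keratin, averaged 13.69 at day 1 and 14.31 at day 2. The D6 gene (listed as Ccbp2, now Ackr2) had 3 probe sets. On the first all 15 D6-deficient arrays (3.30 to 3.86) lay below all 15 WT arrays (4.15 to 5.76), whereas the second (4.55 to 5.42 against 5.14 to 6.26) and the third (6.59 to 8.09 against 6.69 to 8.54) overlapped. Whether these probe sets lie in the deleted part of the gene is not known here. None of them passed the test between days 1 and 2 of D6-deficient skin (log2 changes of -0.22, 0.18 and 0.23, with adjusted p of 0.66, 0.69 and 0.64).

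Between day 1 and day 2, D6-deficient skin gained neutrophil and monocyte chemokines, neutrophil receptors and interferon-stimulated genes, and lost hair shaft keratins and pigment genes. Of 36029 probe sets tested, 201 (0.558%) were higher and 143 (0.397%) were lower at day 2, at a Benjamini-Hochberg adjusted p under 0.05 by limma and a change of more than 3-fold. These are the called probe sets, and they name 161 and 118 genes with a single symbol. Without the fold threshold 1865 (5.18%) rose and 1888 (5.24%) fell, 10.4% together, and in what follows a gene is said to rise, fall or pass on this wider test. The median log2 change of all probe sets tested was -0.03, with a median SE of 0.15. The 3 day 2 arrays did not overlap the 3 day 1 arrays for 343 of the 344 called probe sets, beside 12.8% (higher) and 18.3% (lower) of all probe sets tested. Without D6-deficient day 1 replicate 1 the wider counts fell to 1149 and 964, and the called counts to 176 and 124.

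**Figure D1:**
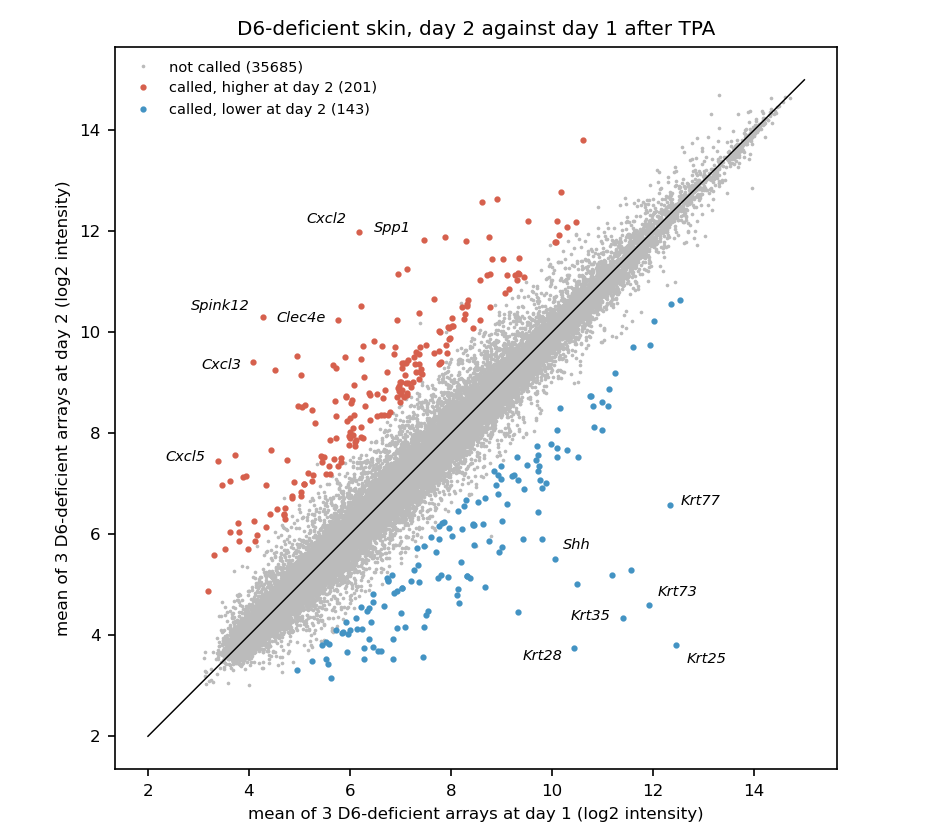
Mean log2 intensity of D6-deficient skin at day 2 (vertical axis) against day 1 (horizontal axis) for all 36029 probe sets tested, each point the mean of 3 arrays. The 201 called higher and 143 called lower probe sets are coloured. Krt25 and other hair keratins stand far below the diagonal, and Cxcl2, Cxcl3 and Spink12 far above it.

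The neutrophil-attracting CXC chemokines held some of the largest increases in the skin. Cxcl2, a Cxcr2 ligand made by macrophages and keratinocytes, read 4.80, 6.54 and 7.18 (log2 intensity) on the day 1 arrays and 12.03, 12.32 and 11.61 on the day 2 arrays. This was a log2 change of 5.81 (SE 0.66, 56.3-fold, adjusted p = 2.0e-06), and the lowest day 2 array stood far above the highest day 1 array. Cxcl3, its close relative, read 3.94, 4.34 and 3.98 at day 1 and 9.43, 10.06 and 8.72 at day 2, a log2 change of 5.31 (SE 0.53, adjusted p = 3.2e-07). At day 1 all 3 Cxcl3 arrays lay near the low end of the values kept for testing, for which the lowest mean was 3.72. Cxcl5 rose by 4.06 (SE 0.36, adjusted p = 8.9e-08), from at most 3.68 on any day 1 array to at least 6.72 on any day 2 array. Cxcl1, another ligand of this receptor, rose by 1.41 (SE 0.28, adjusted p = 0.0014) by its brightest probe set. Its other probe sets gave 1.90 (adjusted p = 7.7e-05) and 0.43, which did not pass (adjusted p = 0.18). In all, 6 of the 7 members of this list rose and none fell, with a median log2 change of 1.41. Besides the genes above, the count includes Ppbp (1.00, adjusted p = 0.017) and Pf4 (0.87, adjusted p = 0.012). Cxcl15 (0.27, adjusted p = 0.21) did not pass. Cxcr2 itself, carried mainly by neutrophils, rose from 6.76, 6.58 and 6.88 to 8.17, 8.04 and 7.92.

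The promoters of Cxcl1, Cxcl2 and Cxcl3 are shown because these neighbouring genes rose together and each held the same short motif. The 250 bases before each gene start come from RefSeq on mouse build GRCm38.p6 (the expression files name no build), 5′ to 3′ on the gene's strand. Capitals mark GGGANTTTC, a form of the NF-kappaB site, searched on both strands. In the table of 32851 mouse promoters 0.941% held it in this window, as did 3 of the 6 promoters found for this chemokine group, 0 of 8 for the inflammatory CC group and 0 of 8 for the homeostatic group. Cxcl1 lies at chr5:90890995-90891244, Cxcl2 at chr5:90903649-90903898 and Cxcl3 at chr5:90785851-90786100, all on the plus strand.
Cxcl1: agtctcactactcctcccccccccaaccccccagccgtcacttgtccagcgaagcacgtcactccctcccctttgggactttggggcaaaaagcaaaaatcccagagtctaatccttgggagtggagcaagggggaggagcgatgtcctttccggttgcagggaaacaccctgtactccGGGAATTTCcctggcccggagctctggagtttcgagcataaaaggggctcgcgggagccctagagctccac
Cxcl2: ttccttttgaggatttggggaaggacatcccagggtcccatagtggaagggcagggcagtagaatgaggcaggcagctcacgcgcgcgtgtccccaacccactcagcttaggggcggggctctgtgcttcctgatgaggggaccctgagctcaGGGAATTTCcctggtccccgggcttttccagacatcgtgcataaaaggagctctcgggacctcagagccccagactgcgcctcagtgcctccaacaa
Cxcl3: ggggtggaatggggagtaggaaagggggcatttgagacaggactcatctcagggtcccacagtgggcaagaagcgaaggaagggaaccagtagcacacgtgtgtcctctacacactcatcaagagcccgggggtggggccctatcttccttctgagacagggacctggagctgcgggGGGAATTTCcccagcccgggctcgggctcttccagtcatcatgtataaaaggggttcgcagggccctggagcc

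Among the inflammatory CC chemokines, most of which D6 can bind, Ccl3 and Ccl4 rose most. Ccl3, which draws monocytes and neutrophils, read 4.71, 4.84 and 5.34 at day 1 and 9.51, 9.82 and 9.25 at day 2, a log2 change of 4.57 (SE 0.44, 23.7-fold, adjusted p = 2.3e-07). Ccl4, its close relative, read 5.83, 5.83 and 6.04 at day 1 and 9.18, 10.03 and 9.32 at day 2, a change of 3.61 (SE 0.27, adjusted p = 1.4e-08). For both, the spread among replicates was small beside the gap between the days. Ccl7, which draws monocytes through Ccr2, rose by 1.43 (SE 0.31, adjusted p = 0.0039). Ccl17, a Ccr4 ligand that draws T cells, went the other way, from 8.21, 7.71 and 7.53 to 5.80, 6.27 and 6.57 (log2 change -1.60, SE 0.41, adjusted p = 0.013). In the group of 14, 8 rose, 1 fell and 5 did not pass, with a median of 0.82. Leaving out D6-deficient day 1 replicate 1, or day 2 replicate 1 in its place, brought the 8 down to 5, and Ccl17 had an adjusted p of 0.077 without the former.

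Ccl20, which draws Ccr6-bearing T cells and dendritic cells, did not pass in D6-deficient skin. It read 6.84, 6.76 and 7.09 at day 1 and 7.17, 6.11 and 6.35 at day 2, a log2 change of -0.35 (SE 0.37, adjusted p = 0.63). In WT skin Ccl20 rose by 1.76 (adjusted p = 0.018). The difference between both changes was -2.12 (SE 0.52) and did not pass (adjusted p = 0.077). Ccl22 moved by -0.15 (SE 0.26, adjusted p = 0.79).

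Of 8 homeostatic chemokines, which place cells in resting tissue, 1 rose, beside 5.18% of all probe sets. None fell, and the list median was 0.04. The 1 that rose was Cxcl12, the ligand of Cxcr4, at 12.33, 12.43 and 12.59 on day 1 and 13.33, 13.11 and 13.15 on day 2 (log2 change 0.75, SE 0.11, adjusted p = 7.6e-05). Of 21 chemokine receptors, 7 rose and 1 fell. Ccr1, on neutrophils and monocytes, rose by 2.16 (SE 0.30, adjusted p = 3.4e-05). Ccrl2, an atypical receptor, rose by 1.71 (SE 0.22, adjusted p = 1.1e-05). Ccr2, the receptor of inflammatory monocytes, rose by 0.77 (SE 0.22, adjusted p = 0.024) by its brightest probe set. This did not hold with the replicate number as a block (adjusted p = 0.11) or without D6-deficient day 1 replicate 1 (adjusted p = 0.16). Its other probe sets moved by 0.67, 0.25 and 0.44 and did not pass (adjusted p = 0.24, 0.58 and 0.1). Ccr3, the eosinophil receptor, moved by 0.45 (SE 0.31, adjusted p = 0.43).

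**Figure D2:**
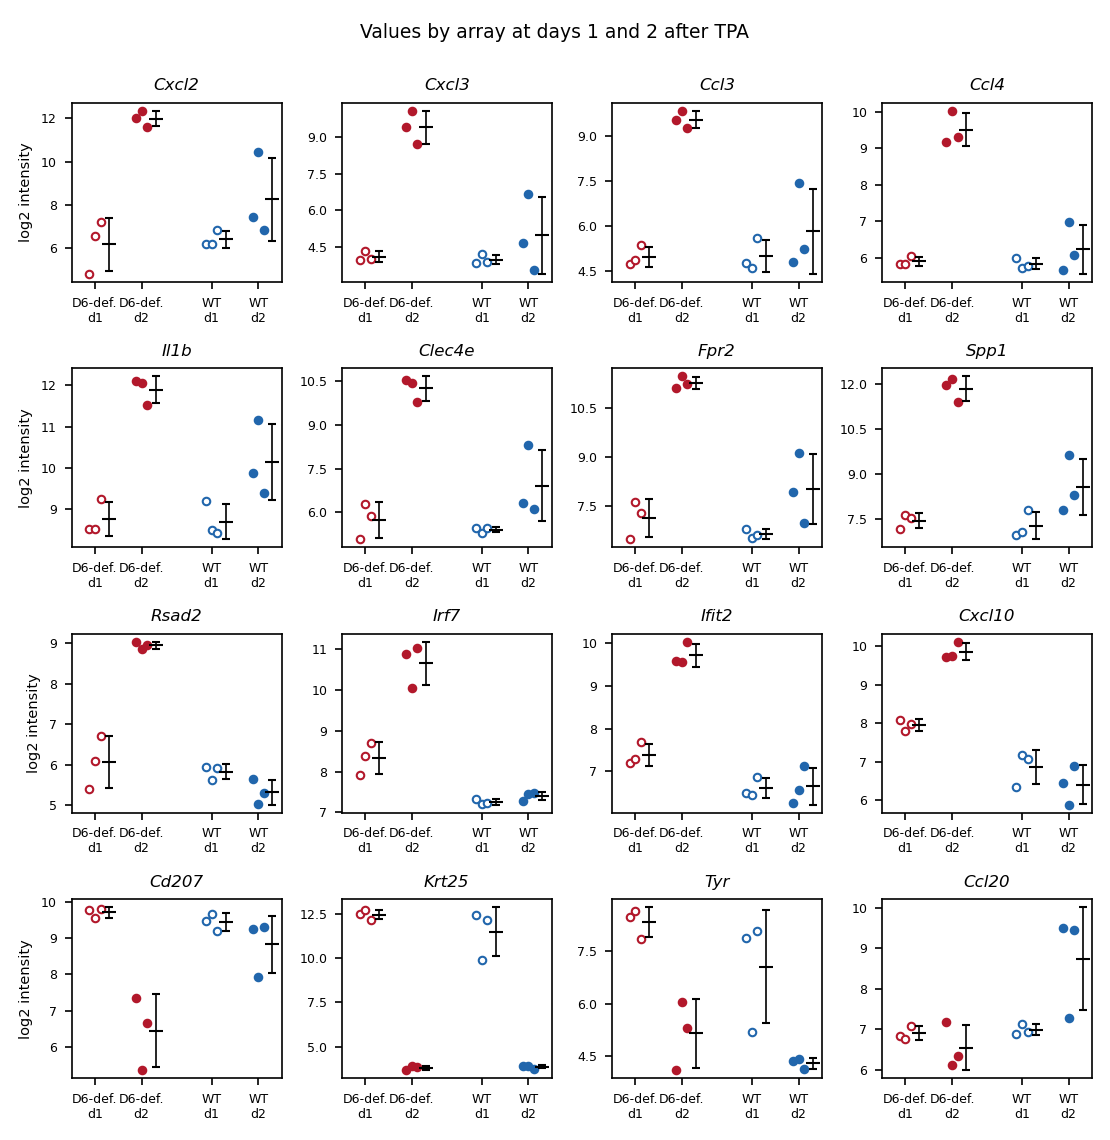
Log2 intensity of 16 named genes on each array at day 1 (open circles) and day 2 (filled circles), D6-deficient in red and WT in blue, with the mean ± SD of 3 arrays beside each group. For Cxcl2, Ccl3, Rsad2 and Irf7 the red day 2 points lie above all other points of the panel, whereas for Krt25 the day 2 points of both genotypes lie near the floor.

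Cytokines of the IL-1 family followed. Il1b, the secreted product of activated myeloid cells, read 8.52, 8.52 and 9.24 at day 1 and 12.11, 12.05 and 11.52 at day 2, a log2 change of 3.13 (SE 0.32, adjusted p = 5.1e-07). Il33, an alarmin kept in the nuclei of epithelial cells, rose by 2.45 (SE 0.28, adjusted p = 1.9e-06). Il1rn, the antagonist of the IL-1 receptor, rose by 1.46 (SE 0.19, adjusted p = 1.0e-05). The binder of IL-18, Il18bp, rose by 1.54 (SE 0.17, adjusted p = 1.4e-06). In total 7 of 17 members rose and none fell, with a median of 0.32. Il1a, the keratinocyte cytokine, did not pass (7.07, 6.74 and 7.22 at day 1 against 7.65, 6.68 and 7.01 at day 2, log2 change 0.10, adjusted p = 0.89).

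Among 20 other cytokines, 4 rose and none fell. Osm, a myeloid product that acts on keratinocytes, went from 5.98, 5.91 and 6.07 to 8.05, 8.34 and 7.46 (log2 change 1.96, SE 0.25, adjusted p = 7.9e-06). Il6 rose by 1.81 (SE 0.39, adjusted p = 0.003) and Tnf by 0.95 (SE 0.13, adjusted p = 2.5e-05). The remaining one, Csf3, the growth factor of neutrophils, rose by 1.00 (SE 0.26, adjusted p = 0.012), which was lost without D6-deficient day 2 replicate 2 (adjusted p = 0.1). Cytokines of T and innate lymphoid cells were uneven among the mice. Il17a read 4.17, 4.52 and 4.27 on the first day against 6.35, 4.52 and 4.72 on the next. The probe set shared by Il22 and Iltifb read 3.48, 3.44 and 3.44 against 5.83, 3.44 and 3.90. Both were high in D6-deficient day 2 replicate 1 alone and did not pass (adjusted p = 0.21 and 0.22). Il15 (0.63, adjusted p = 0.078) and Il20 (0.05, adjusted p = 0.95) did not pass either.

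All 17 neutrophil surface receptors tested rose, with a median log2 change of 2.62, and 13 of them were called. The pattern-recognition lectin Clec4e read 5.08, 6.29 and 5.89 at day 1 and 10.53, 10.44 and 9.77 at day 2 (log2 change 4.49, SE 0.43, adjusted p = 2.3e-07). Its neighbour Clec4d rose by 4.21 (SE 0.49, adjusted p = 3.0e-06). The formyl peptide receptors Fpr2 and Fpr1 rose by 4.12 (SE 0.40) and 3.45 (SE 0.42), and Csf3r, the receptor for the neutrophil growth factor, by 3.02 (SE 0.25). The mean of the 17 members lay between 6.77 and 7.17 on the day 1 arrays and between 9.43 and 9.70 on the day 2 arrays. In WT skin the same mean lay between 6.79 and 7.02 at day 1 and between 7.24 and 8.32 at day 2. At day 4 it lay between 9.55 and 10.40 in WT and between 10.15 and 10.45 in D6-deficient skin. The part of the day 1 to day 2 rise of these receptors in the chemokine and cytokine increases was not tested.

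Granule proteins were split. Of 17, 9 rose and none fell (median 1.58). Lcn2, an iron-binding protein made by neutrophils and keratinocytes, rose by 3.96 (SE 0.52, adjusted p = 1.4e-05). The collagenase Mmp8 went from 5.36, 5.88 and 5.93 to 8.33, 9.75 and 9.79 (log2 change 3.56, SE 0.39, adjusted p = 1.2e-06) and the gelatinase Mmp9 rose by 3.10 (SE 0.28, adjusted p = 9.2e-08). Azurophil granule genes, which are transcribed in bone marrow precursors, did not pass: Elane moved by 0.11 (SE 0.27) and Mpo by 0.46 (SE 0.50). Members of other kinds did not pass either. These were S100a8 (1.17, adjusted p = 0.23), S100a9 (1.40, adjusted p = 0.14), Ngp (2.36, adjusted p = 0.061) and Camp (1.41, adjusted p = 0.15). Lactoferrin, Ltf, was scattered, at 5.74, 7.18 and 4.94 on day 1 and 6.23, 8.64 and 9.87 on day 2. Its change of 2.30 (adjusted p = 0.042) did not hold with the replicate block (adjusted p = 0.13) or without D6-deficient day 2 replicate 3 (adjusted p = 0.25).

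Macrophage and monocyte markers rose in 15 of 20 cases and fell in none, with a median of 0.83. Arg1, the arginine-degrading enzyme of wound macrophages, read 7.98, 7.84 and 9.10 at day 1 and 11.43, 11.98 and 11.99 at day 2 (log2 change 3.50, SE 0.48, adjusted p = 2.7e-05). The Fc receptor Fcgr4 rose by 2.85 (SE 0.26, adjusted p = 8.9e-08) and Cd14, the lipopolysaccharide co-receptor, by 2.39 (SE 0.32, adjusted p = 1.6e-05). Cd68, a lysosomal protein of macrophages, rose less, by 1.23 (SE 0.20, adjusted p = 2.6e-04). Of 18 Toll-like receptor and inflammasome genes, 14 rose and none fell (median 0.80). Tlr1 rose by 2.40 (SE 0.25) and Tlr13 by 2.02 (SE 0.32), beside Cd14. Among 15 complement genes 9 rose and none fell (median 0.69). The anaphylatoxin receptors C3ar1 and C5ar1 rose by 2.01 (SE 0.22) and 1.72 (SE 0.25), and the integrin chain Itgam by 1.96 (SE 0.25).

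Of 20 T cell and NK cell markers 2 rose (1 with the replicate block) and none fell, with a median of -0.07, beside 5.18% of all probe sets that rose and 5.24% that fell. Cd3e, a chain of the T cell receptor complex, moved by -0.16 (SE 0.15, adjusted p = 0.58). Cd4 rose by 0.93 (SE 0.13, adjusted p = 2.0e-05), from 6.82, 6.84 and 6.87 to 7.47, 7.79 and 8.07, and is carried by macrophages and dendritic cells as well as T cells. The protease Gzmb rose by 1.03 (adjusted p = 0.036) but overlapped between days and had an adjusted p of 0.083 with the replicate block and of 0.23 without D6-deficient day 1 replicate 1. Of 7 B cell markers only Cd22 passed (1.80, SE 0.14, adjusted p = 1.4e-08), and the median was -0.12. Mast cell markers gave 2 of 9, among them Hdc, the histamine-forming enzyme (2.23, SE 0.30, adjusted p = 1.7e-05), which neutrophils can also make.

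Langerhans cells, the dendritic cells of the epidermis, carry the lectin Cd207. It read 9.78, 9.55 and 9.81 at day 1 and 7.34, 5.36 and 6.65 at day 2, a log2 change of -3.26 (SE 0.39, 9.61-fold lower, adjusted p = 4.6e-06). The 3 day 2 mice differed among themselves, but each lay well below day 1. In the rest of the group of 15 dendritic cell and MHC class II genes, Cd80, a costimulatory ligand, rose by 0.88 (SE 0.18, adjusted p = 0.0023), H2-Aa moved by -0.29 (adjusted p = 0.14) and Cd74 by -0.40 (adjusted p = 0.077), and the median was -0.29.

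Interferon-stimulated genes rose almost throughout. Of 30 genes on the list the study drew up from these samples, 29 rose, 20 of them past 3-fold, and none fell (median 1.86). Since that list was chosen on these arrays, its count is no independent evidence of direction. Of 35 further interferon-stimulated genes, 32 rose and none fell, with a median of 1.07, beside 5.18% of all probe sets that rose. This list too was chosen with earlier results of these data known. The antiviral enzyme Rsad2, by its probe set with the largest difference between genotypes, read 5.41, 6.10 and 6.70 at day 1 and 9.03, 8.86 and 8.97 at day 2 (log2 change 2.88, SE 0.26, adjusted p = 1.1e-07). Irf7, the factor that amplifies interferon production, read 7.91, 8.39 and 8.70 at day 1 and 10.87, 10.04 and 11.03 at day 2 (2.32, SE 0.24, adjusted p = 6.3e-07). Ifit2, an inhibitor of viral translation, read 7.19, 7.29 and 7.68 against 9.58, 9.55 and 10.03 (2.33, SE 0.21, adjusted p = 6.8e-08). In each of these 3 genes every day 2 mouse lay above every day 1 mouse, as in 12.8% of all probe sets tested.

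Further members of both lists gave the same direction. Irg1 (now Acod1), which makes itaconate in macrophages, went from 4.07, 4.66 and 4.83 to 8.97, 9.87 and 8.94 (4.74, SE 0.45, adjusted p = 2.0e-07). The membrane proteins Ifitm6 and Ifitm1 rose by 3.01 (SE 0.36) and 2.67 (SE 0.26), and Oasl1 by 2.82 (SE 0.26). The probe set shared by Isg15, the ubiquitin-like modifier, and Gm9706 rose by 2.20 (SE 0.23, adjusted p = 7.5e-07). Cmpk2, a nucleotide kinase beside Rsad2, rose by 1.87 (SE 0.22), the chaperone Rtp4 by 1.77 (SE 0.20), Trim30a by 1.66 (SE 0.24) and the nucleic acid sensor Zbp1 by 1.62 (SE 0.21). Stat2, which carries the signal to the nucleus, rose by 1.01 (SE 0.19, adjusted p = 9.8e-04). Over the same days the mean of the neutrophil surface receptors rose from between 6.77 and 7.17 to between 9.43 and 9.70, and its part in these increases was not tested.

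Of 10 interferon and receptor genes tested, 3 rose (1 with the replicate block) and none fell (median 0.16), beside 5.18% of all probe sets that rose, and 3 more were too dim to be tested. Ifnb1 read 3.78, 3.99 and 4.09 at day 1 and 4.12, 4.22 and 3.98 at day 2 (0.15, SE 0.16, adjusted p = 0.64), which is near the low end of the array's range. Ifnar1 rose by 0.61 (adjusted p = 4.8e-04) and Ifnar2 by 0.42 (adjusted p = 0.039), although with the replicate block their adjusted p was 0.052 and 0.08. Ifnar2 also reached an adjusted p of 0.22 without D6-deficient day 1 replicate 1. Il10rb, a receptor chain used by type III interferons, rose by 0.53 (SE 0.10, adjusted p = 0.0012). Cxcl10, an interferon-induced ligand of Cxcr3, read 8.08, 7.79 and 7.99 at day 1 and 9.73, 9.75 and 10.12 at day 2 (1.91, SE 0.24, adjusted p = 7.4e-06). Cxcl9, which shares the receptor, read 8.72, 8.73 and 8.73 against 9.24, 9.69 and 9.71 and did not pass (0.82, SE 0.40, adjusted p = 0.22), while with the replicate block its adjusted p was 0.019.

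The promoters of Ifit1, Cxcl10 and Trim30a are shown as members that rose and held the core of the interferon response element. Ifit1 rose from a mean of 8.32 to 10.56 (2.24, SE 0.36, adjusted p = 1.5e-04). Capitals mark GAAANNGAA, searched on both strands of the 250 bases before the gene start (RefSeq, GRCm38.p6, 5′ to 3′ on the gene's strand). The motif was in 7.13% of all promoters, in 9 of 26 (34.6%) for the study's list and in 11 of 36 (30.6%) for the further genes. In Ifit1 it occurred 3 times, and the first 2 matches overlap. A match is a description of these letters and not of a bound factor. Ifit1 lies at chr19:34640639-34640888 on the plus strand, Cxcl10 at chr5:92348890-92349139 on the minus strand and Trim30a at chr7:104465194-104465443 on the minus strand. The table holds 2 promoters of Trim30a, and the other one has no match.
Ifit1: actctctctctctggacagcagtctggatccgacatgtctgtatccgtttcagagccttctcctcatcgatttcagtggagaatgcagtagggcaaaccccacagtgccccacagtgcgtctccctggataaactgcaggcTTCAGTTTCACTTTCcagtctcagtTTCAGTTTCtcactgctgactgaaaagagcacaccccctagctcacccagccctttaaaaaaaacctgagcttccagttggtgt
Cxcl10: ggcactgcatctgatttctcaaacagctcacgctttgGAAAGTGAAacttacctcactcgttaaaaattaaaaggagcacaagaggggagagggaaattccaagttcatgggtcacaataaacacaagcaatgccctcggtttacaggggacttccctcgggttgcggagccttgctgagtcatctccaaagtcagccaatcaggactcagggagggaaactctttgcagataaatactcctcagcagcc
Trim30a: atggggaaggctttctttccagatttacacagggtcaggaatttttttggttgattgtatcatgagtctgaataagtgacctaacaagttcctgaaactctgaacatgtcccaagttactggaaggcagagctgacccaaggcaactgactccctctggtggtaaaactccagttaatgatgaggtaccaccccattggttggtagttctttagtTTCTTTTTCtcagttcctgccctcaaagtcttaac

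The change in D6-deficient skin was set against that in WT skin from day 1 to day 2, where 39 probe sets (0.108%) were called higher and 43 (0.119%) lower, or 228 (0.633%) and 204 (0.566%) without the fold threshold. Of the 201 probe sets called higher in D6-deficient skin, 187 had the same sign in WT and 35 passed there. Their median log2 change was 2.10 against 0.69 in WT. Of the 143 called lower, 140 had the same sign in WT and 47 passed, with medians of -2.19 and -1.26. The difference between the genotypes' changes was itself tested: the D6-deficient change lay above the WT change (a positive difference) by more than 3-fold for 64 probe sets (0.178%) and below it (a negative difference) for 2 (0.00555%), or for 147 (0.408%) and 12 (0.0333%) without the fold threshold. Of the probe sets called higher, 76 passed this test in the same direction, and of those called lower, 1 did. Both sets were chosen for a change of more than 3-fold in D6-deficient skin. Their medians and these counts are therefore partly set by that choice. The counts past 3-fold ranged from 35 (without D6-deficient day 1 replicate 1) to 87 (without WT day 2 replicate 2) for positive differences, and from 0 (without D6-deficient day 1 replicate 1) to 14 (without D6-deficient day 2 replicate 1) for negative ones.

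Chemokines and interferon-stimulated genes were among the largest differences, as was Reg1, a secreted lectin, at 4.13 against 0.57 (difference 3.56, SE 0.75, adjusted p = 0.027, and up to 0.11 without 1 array). Cxcl3 rose by 5.31 in D6-deficient and moved by 0.99 in WT skin, a difference of 4.33 (SE 0.74, adjusted p = 0.0046). Ccl3 gave 4.57 against 0.82 (difference 3.74, SE 0.63, adjusted p = 0.0036) and Ccl4 3.61 against 0.40 (3.21, SE 0.39, adjusted p = 1.3e-04). Rsad2 gave 2.88 against -0.51 (3.40, SE 0.37, adjusted p = 9.3e-05) and Ifit2 2.33 against 0.04 (2.29, SE 0.29, adjusted p = 1.6e-04). For these 5 genes the difference passed without any 1 array. Of all probe sets tested, 0.408% had a positive difference that passed. By list, so did 18 of the 30 interferon-stimulated genes of the study and 13 of the 35 further ones. The same held for 7 of the 17 neutrophil surface receptors, 2 of the 7 CXC and 2 of the 14 CC chemokines. Among other lists it held for 4 of 21 matrix metalloproteinases and inhibitors and 3 of 20 macrophage and monocyte markers. It held for none of 21 chemokine receptors, 15 complement genes or 20 other cytokines. The study's interferon list was chosen for higher values in D6-deficient than WT skin at day 2 on these arrays. Its count is largely set by that choice. Cxcl2 did not pass (5.81 against 1.85, difference 3.96, SE 0.93, adjusted p = 0.057). Spp1 (osteopontin), a matrix protein and cytokine of macrophages, did, with 4.37 against 1.29 (3.08, SE 0.51, adjusted p = 0.0036). Cd207 gave a negative difference, since it fell by 3.26 in D6-deficient skin and moved by -0.62 in WT (-2.65, SE 0.55, adjusted p = 0.026), and was lost when some single arrays were left out (adjusted p of up to 0.1, without WT day 2 replicate 3).

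**Figure D3:**
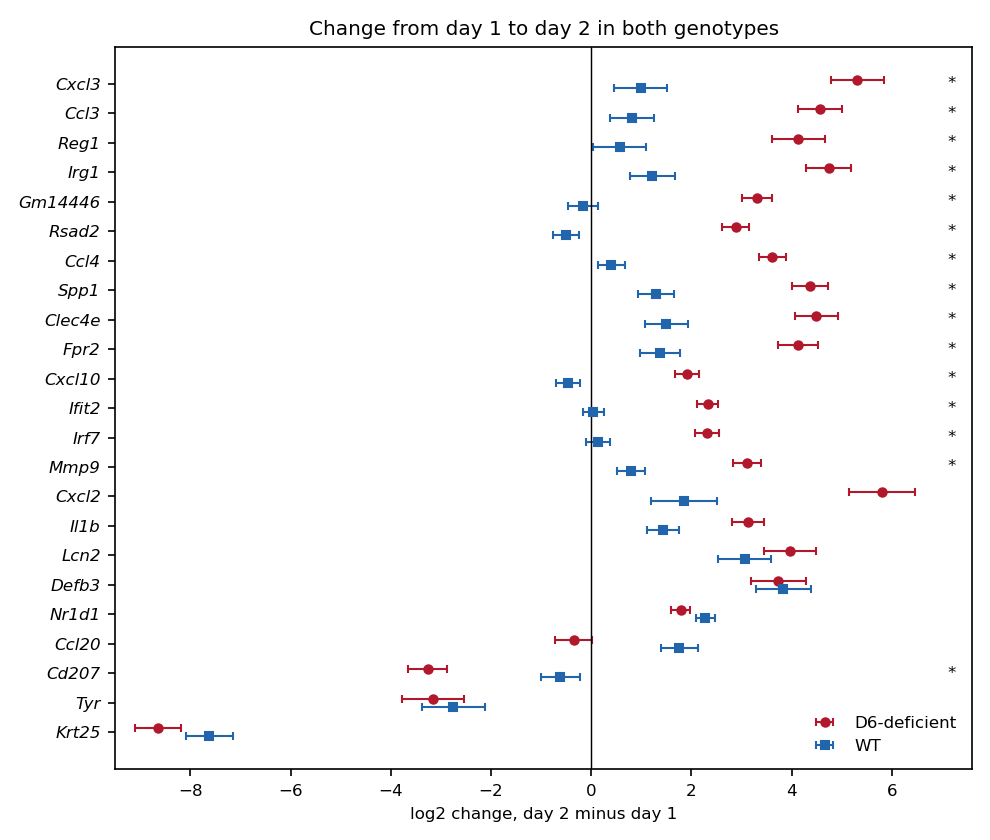
Log2 change from day 1 to day 2 (horizontal axis, ± SE) of 23 genes in D6-deficient (red) and WT (blue) skin, 3 arrays per group and day. An asterisk marks an adjusted p under 0.05 for the difference. The interferon-stimulated genes Rsad2, Ifit2, Irf7 and Cxcl10 sit near 0 or below it in WT and between 1.91 and 2.88 in D6-deficient skin, whereas Krt25 and Defb3 lie far from 0 in both genotypes.

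Epidermal genes moved in several directions. Krt5 and Krt14, the basal pair, rose by 0.52 (SE 0.14, adjusted p = 0.014) and 0.62 (SE 0.16, adjusted p = 0.01). Krt77, a keratin of sweat ducts and suprabasal cells, read 12.09, 11.93 and 12.98 at day 1 and 8.16, 5.08 and 6.50 at day 2 (log2 change -5.76, SE 1.00, 54.1-fold lower, adjusted p = 3.9e-04). Krt15, a keratin of basal and follicle bulge cells, fell by 2.05 (SE 0.29, adjusted p = 4.7e-05) and Krt79 by 2.19 (SE 0.41, adjusted p = 0.001). Of 12 basal and differentiated keratins, 2 rose (1 with the block) and 4 fell, beside 5.18% and 5.24% of all probe sets. Stress keratins were already high at day 1, and none of 9 on that list rose (2 with the replicate block): Krt6b moved from 13.93 to 14.38 (0.45, SE 0.79) and Krt16 from 12.97 to 13.59 (0.62, SE 0.54), while Krt75, a keratin of the hair companion layer, was the 1 that fell (-3.25, SE 0.57, adjusted p = 4.7e-04).

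Cornified envelope and barrier genes gave 3 of 36 higher and 10 lower (median -0.32), beside 5.18% and 5.24% of all probe sets. Lce3a, a late envelope protein of injured skin, rose from 10.83, 10.14 and 9.56 to 13.02, 12.47 and 12.82 (2.60, SE 0.54, adjusted p = 0.0024), as it did in WT (2.93). Lce1l, of the group made in resting skin, fell by 1.65 (SE 0.36, adjusted p = 0.0036). Ivl (involucrin) fell by 1.38 (SE 0.35, adjusted p = 0.011), with an adjusted p of 0.067 without D6-deficient day 1 replicate 3. Flg (filaggrin) read 11.71, 11.74 and 11.68 against 11.22, 10.75 and 10.81 and did not pass (-0.78, SE 0.51, adjusted p = 0.38), while with the replicate block its adjusted p was 0.021. The number that fell dropped to 2 without D6-deficient day 1 replicate 3 or day 2 replicate 2, and to 6 without day 2 replicate 3. The number that rose was 1 without day 1 replicate 2, day 1 replicate 3 or day 2 replicate 1, and 6 with the block. Of 12 small proline-rich proteins and stefins 1 rose (6 with the block), with a median of 0.72, beside 5.18% of all probe sets that rose.

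Epithelial antimicrobial proteins rose in 9 of 16 cases and fell in none (median 1.66). Defb3, a beta-defensin of inflamed keratinocytes, read 9.12, 8.98 and 8.61 at day 1 and 13.67, 12.07 and 12.17 at day 2 (3.73, SE 0.55, adjusted p = 6.7e-05). Defb4 rose by 3.44 (SE 0.37, adjusted p = 1.1e-06) and Saa3, an acute-phase protein, by 3.19 (SE 0.55, adjusted p = 3.6e-04). WT skin rose as well, by 3.83 for Defb3 and 2.39 for Defb4, and 6 of the 16 passed there (median 1.12). None of the 16 passed the test of a difference between genotypes, in which 2887 of all probe sets had an unadjusted p under 0.05. For Defb3 that difference was -0.10 (SE 0.78), with a 95% interval from -1.71 to 1.52.

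None of 28 mitosis genes passed (median -0.13), and 1 of 27 DNA replication genes (2 with the replicate block), Mcm6, fell (-1.09, SE 0.30, adjusted p = 0.018, but 0.1 without D6-deficient day 2 replicate 2), in a fit where 8460 of all probe sets had an unadjusted p under 0.05. Mki67, a nuclear protein of cycling cells, moved by -0.37 (SE 0.33, adjusted p = 0.55).

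Hair shaft and inner root sheath genes held the largest decreases among the called probe sets. Krt25, an inner root sheath keratin, read 12.52, 12.71 and 12.16 at day 1 and 3.68, 3.91 and 3.87 at day 2, a log2 change of -8.65 (SE 0.46, 400-fold lower, adjusted p = 2.4e-11). Krt73, also of the sheath, fell by 7.31 (SE 0.57) and Krt35, of the hair cortex, by 7.05 (SE 0.55). In all 3 genes the day 2 arrays lay near the low end of the array's range. Of 22 such genes 14 fell and none rose (median -3.42). Factors that drive hair growth fell with them. Shh, the morphogen of the hair matrix, went from 10.57, 10.30 and 9.30 to 5.32, 5.67 and 5.54 (-4.55, SE 0.47, adjusted p = 5.5e-07), its target Gli1 fell by 2.60 (SE 0.40) and the transcription factors Lhx2 and Msx2 by 3.53 (SE 0.43) and 3.72 (SE 0.48). Of 20 follicle signalling genes 9 fell and 2 rose (1 with the block), beside 5.24% and 5.18% of all probe sets. Krt28, Krt71, Krt27 and Krt85, further keratins of the sheath and shaft, fell by 6.70, 6.26, 6.00 and 5.47, and S100a3 and Tchh (trichohyalin), of hair cuticle and root sheath, by 4.87 and 3.89.

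Melanocyte genes fell in 6 of 9 cases (median -2.70). Tyr, the first enzyme of melanin synthesis, read 8.47, 8.65 and 7.84 at day 1 and 4.11, 6.06 and 5.32 at day 2 (-3.16, SE 0.62, adjusted p = 0.0014). Si (now Pmel), Tyrp1 and Dct fell by 2.98 (SE 0.48), 2.85 (SE 0.51) and 2.70 (SE 0.49). The mean of the hair list lay between 8.09 and 8.85 on the day 1 arrays and between 4.79 and 4.88 on the day 2 arrays, and at days 0, 4 and 6 of D6-deficient skin it lay between 4.69 and 4.87, 4.96 and 4.98, and 7.93 and 11.43. Krt25 averaged 4.07, 12.46, 3.82, 4.19 and 12.83 at days 0, 1, 2, 4 and 6 in D6-deficient skin and 3.84, 11.50, 3.88, 3.88 and 12.31 in WT. Both genotypes thus had hair genes high at days 1 and 6 and low at days 0, 2 and 4. In WT, 11 hair genes and 5 melanocyte genes fell from day 1 to day 2 (medians -2.41 and -2.55), and none of either list passed the test of a difference between genotypes. Each day used other mice, so the day and the hair cycle stage of the mice taken on it cannot be told apart.

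**Figure D4:**
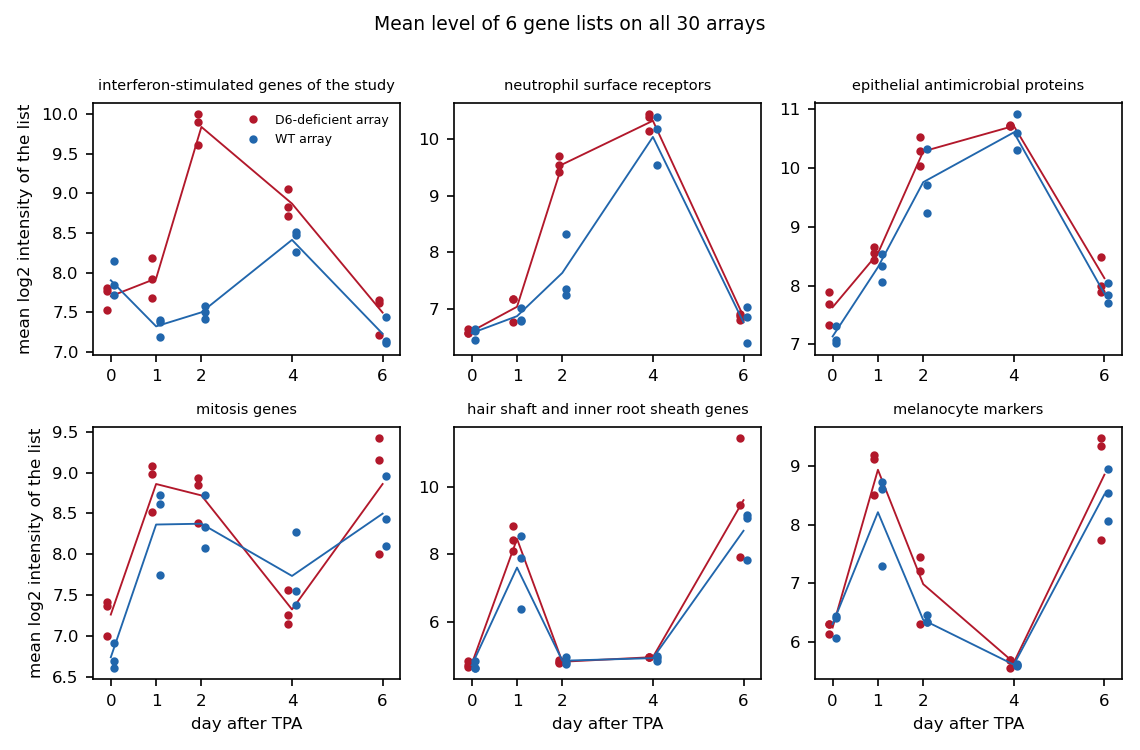
Mean log2 intensity of the members of 6 gene lists on each of the 30 arrays (vertical axis) by day (horizontal axis), D6-deficient in red and WT in blue, with lines through the means of 3 arrays. Hair and melanocyte lists swing together in both genotypes, high at days 1 and 6. The neutrophil receptor list of D6-deficient skin stands above that of WT at day 2. At day 4 the WT arrays (9.55 to 10.40) overlap the D6-deficient arrays (10.15 to 10.45).

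Some clock genes also differed between the days, in both genotypes. Nr1d1, a repressor of the circadian clock, went from 6.00, 6.30 and 5.64 to 7.76, 7.71 and 7.85 (1.79, SE 0.19, adjusted p = 1.0e-06), and its mean over days 0, 1, 2, 4 and 6 was 8.03, 5.98, 7.77, 7.90 and 7.50. Day 1 was the low point. In WT Nr1d1 rose by 2.28. Dbp, a clock output factor, rose by 1.34 (SE 0.28) and Cry1, a core repressor, fell by 0.95 (SE 0.11, adjusted p = 3.9e-06). In all, 3 of 16 clock genes rose and 2 fell, beside 5.18% and 5.24% of all probe sets. The hour of collection is not given in the sources used here, and its part in other changes was not tested.

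Matrix-degrading enzymes and metabolic genes made up the rest. Of 21 matrix metalloproteinases and inhibitors, 9 rose and 2 fell. Mmp13, a collagenase, went from 6.27, 6.44 and 6.07 to 9.11, 10.15 and 9.94 (3.48, SE 0.45, adjusted p = 1.2e-05), beside Mmp8 and Mmp9 above. Among 21 collagen and matrix genes 4 rose (2 without D6-deficient day 1 replicate 1) and none fell, led by Spp1, which read 7.19, 7.66 and 7.54 against 11.96, 12.16 and 11.38 (SE 0.36, adjusted p = 3.0e-08). Tnc (tenascin C), laid down in wounds, rose by 1.73 (SE 0.42, adjusted p = 0.0091), and the list median was 0.06. Ptgs2, the inducible prostaglandin synthase, went from 5.08, 5.43 and 6.47 to 9.77, 9.70 and 8.61 (3.70, SE 0.49, adjusted p = 1.5e-05).

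Glycolysis and glucose transport genes rose in 8 of 16 cases and fell in 1. The glucose transporters Slc2a3 and Slc2a1 rose by 2.05 (SE 0.29) and 1.41 (SE 0.19), and the lactate exporter Slc16a3 by 1.90 (SE 0.26). Slc7a11, the cystine importer that feeds glutathione synthesis, rose from 5.13, 5.50 and 5.12 to 8.27, 8.72 and 8.39 (3.21, SE 0.33, adjusted p = 6.4e-07). Hmox1 (heme oxygenase 1) rose by 1.20 (SE 0.23) and Mt4, a metallothionein of differentiated epithelium, fell by 2.62 (SE 0.45). Endothelial adhesion and vessel genes rose in 6 of 17 cases, with Selp (P-selectin) at 1.31 (SE 0.25, adjusted p = 9.6e-04), but in 1 without D6-deficient day 1 replicate 1, 2 without day 2 replicate 2 and 3 without day 2 replicate 3. Cholesterol and fatty acid synthesis genes fell in 4 of 23 cases, beside 5.24% of all probe sets, Dhcr7 among them (-0.70, SE 0.15, adjusted p = 0.0029). They fell in 1 case without day 2 replicate 2, 2 without day 1 replicate 3 and 2 with the replicate block. None of 18 skeletal muscle markers passed (median 0.07, though 2 rose and 1 fell with the replicate block, and 1 rose without D6-deficient day 1 replicate 1), nor did any of 3 red cell markers. Largest of the changes outside these groups was that of Spink12, a Kazal-type protease inhibitor, which read 3.86, 4.44 and 4.52 at day 1 and 9.48, 10.95 and 10.50 at day 2 (6.04, SE 0.42, 65.8-fold, adjusted p = 3.8e-09). Hpx, the heme-binding plasma protein hemopexin, read 5.93, 5.78 and 6.93 against 11.29, 9.97 and 10.33 (4.31, SE 0.62, 19.9-fold, adjusted p = 4.8e-05). Crym, a thyroid hormone-binding protein, fell by 3.88 (SE 0.67, adjusted p = 3.8e-04).

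**Figure D5:**
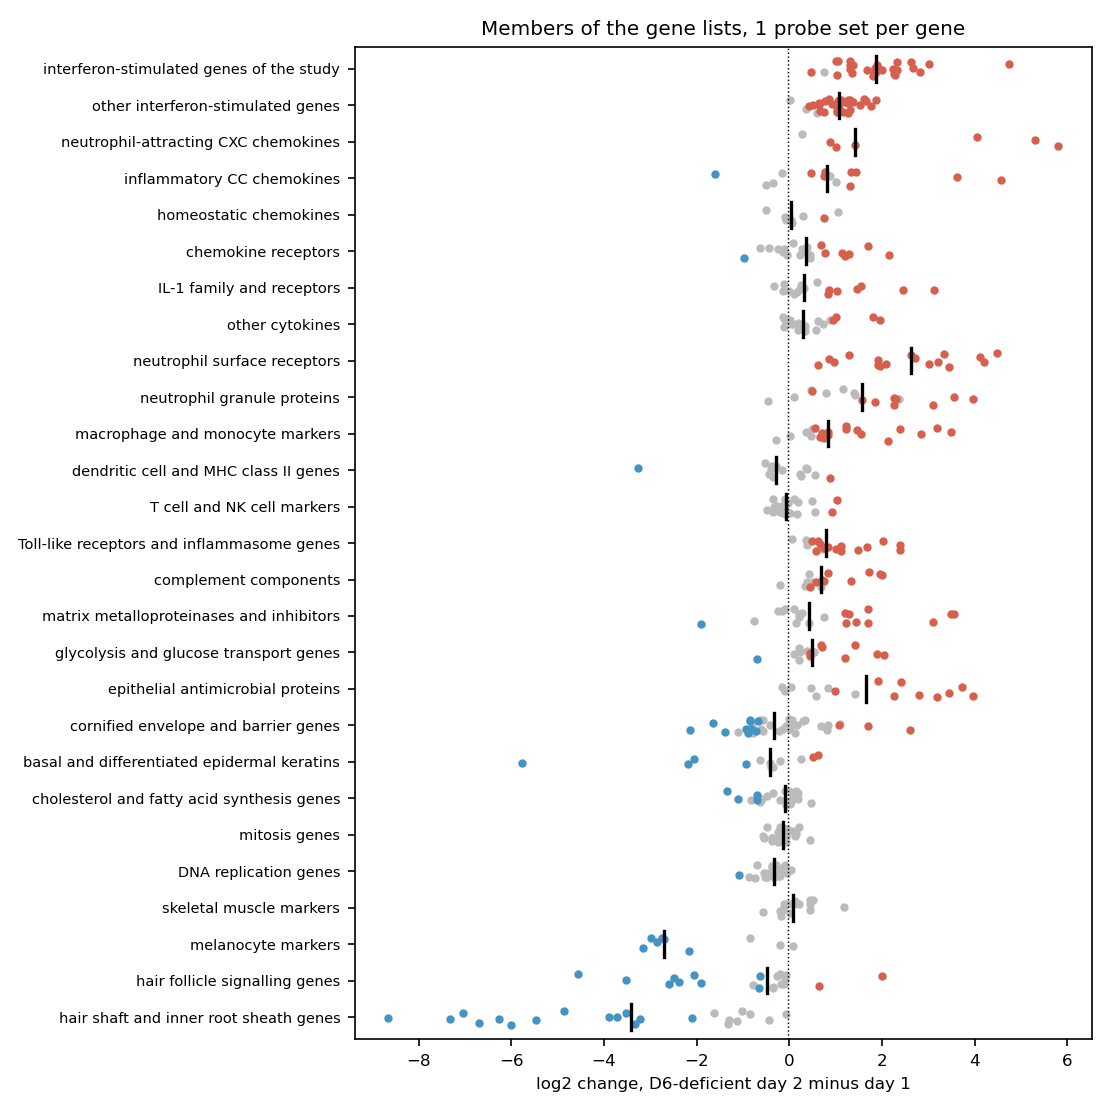
Log2 change from day 1 to day 2 in D6-deficient skin (horizontal axis) of each member of 27 gene lists, red where it rose, blue where it fell and grey where it did not pass, with a black bar at the list median and a dotted line at the median of all probe sets (-0.03). Neutrophil receptors and interferon-stimulated genes lie right of the line, hair and melanocyte genes left of it.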

How the data were processed

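Whole back skin RNA of 30 mice was measured on Affymetrix mouse whole-genome expression arrays. Per the labels, the authors normalised the scanner data by RMA, and the deposited values are linear intensities, of which log2 was taken here. The submitters' processing notes name the software but no genome build. The authors' own fold changes and p-values were not used. Groups came from the labels, with 3 mice for each genotype and day. Of 45101 probe sets, 64 controls and the 9008 with the lowest means (20%) were left out, which left 36029.

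A mean for each of the 10 groups was fitted over all 30 arrays with limma 3.58.1 (R 4.3.3), followed by empirical Bayes moderation and Benjamini-Hochberg adjustment. The contrasts were D6-deficient day 2 minus day 1, and the difference of this change from the WT one. A call needed an adjusted p under 0.05 and more than 3-fold, the study's fold. The procedure was tested on simulated data. Arrays carry no depth, and their number limits the precision. An exact permutation test of 3 against 3 mice cannot go below p = 0.1, so single genes were not permuted.

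The genes in the text were drawn from those a rule gave: the 12 largest called changes in each direction, up to 4 of the largest in each of 46 gene lists (755 of 815 genes matched), genes the study names, the D6 gene, and the 6 largest differences. Other list members named for their known role are Csf3r, Elane, Mpo, Cd68, Cd3e, H2-Aa, Cd74, Krt5, Krt14, Krt6b, Krt16, Mki67, Msx2, Dct and Ifit1, which were chosen after their values were seen. S100a8, S100a9, Ngp and Camp were named because they did not pass. A list member stands by its brightest probe set. The members and lists were chosen with earlier results of these data known. Promoters came from RefSeq (GRCm38.p6).

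Each array came from a different mouse, so shared replicate numbers are no pairing by design. Deviations of D6-deficient day 1 and day 2 samples correlated at 0.113, 0.124 and 0.172 for shared numbers. For unshared numbers they correlated at -0.147 to 0.024, and in WT skin at up to 0.155. Such values do not establish a pairing, and the block was fitted only as an alternative. Other alternatives were the filter, the arrays fitted, centring, control sets, array weights, the methods' t-test, one value per gene, and leaving out each array.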

Additional observations from a re-analysis of the deposited data

Results flagged for a closer look

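The change from day 1 to day 2 differed between D6-deficient and WT skin for 30 of the 164 named probe sets tested. This was by the test of the difference itself, which 159 (0.441%) of all probe sets passed. Named genes were drawn partly for their large changes and differences, so this count and its signs are partly set by that choice. All values below are differences of log2 changes (D6-deficient minus WT). Chemokines were Cxcl3 (4.33), Ccl3 (3.74), Ccl4 (3.21), Cxcl5 (2.65) and Cxcl10 (2.37). Interferon-stimulated genes were Irg1 (3.52), Gm14446 (3.47), Rsad2 (3.40), the shared probe set Gm9706 /// Isg15 (2.41), Ifit2 (2.29), Cmpk2 (2.24), Oasl1 (2.19), Irf7 (2.17), Ifitm1 (1.76), Rtp4 (1.67) and Stat2 (1.25). Genes of neutrophils and macrophages were Arg1 (3.14), Clec4e (2.99), Fpr2 (2.75), Mmp8 (2.72), Fpr1 (2.71), Mmp9 (2.30) and Fcgr4 (2.00). The rest were Reg1 (3.56), Spp1 (3.08), Spink12 (2.82), Il18bp (1.47), Cd22 (1.33), Tlr6 (1.23) and Cd207 (-2.65).

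Of these 30 differences, 29 were positive and 18 passed whichever single array was left out. The 12 that did not were Spink12, Clec4e, Reg1, Fpr2, Cxcl5, Ifitm1, Mmp8, Fpr1, Arg1, Cd207, Stat2 and Tlr6. With only the arrays of both days in the fit 17 passed, with a control set as a covariate 28, and with median-centred arrays 30.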

How the results depend on the processing

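Called probe sets (201 higher, 143 lower) went to 67 and 40 by the methods' t-test with Benjamini-Hochberg adjustment and to 1865 and 1888 with no fold threshold, and with 1 array left out to 176 to 219 and 124 to 150. At an adjusted p under 0.05 alone (1865 and 1888), array weights gave 4009 and 5362, the methods' t-test 3335 and 4641 unadjusted and 241 and 196 adjusted, and leaving out 1 array 1149 to 1746 and 964 to 1725.

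For the difference between genotypes (64 positive, 2 negative called), the methods' t-test gave 98 and 22 unadjusted and 0 and 0 adjusted, no fold threshold 147 and 12, and leaving out 1 array 35 to 87 and 0 to 14. Negative differences numbered 1 with no filter, with the contrast's arrays alone or with 1 value per gene, and 18 with array weights. At an adjusted p under 0.05 alone (147 and 12), array weights gave 467 and 219, the methods' t-test 1648 and 1665 unadjusted and 0 and 0 adjusted, and leaving out 1 array 56 to 156 and 2 to 38. WT replicate numbers did not pair the samples (correlations -0.253, -0.198 and -0.266). With the replicate block the counts were 18 and 0 called, and 23 and 2 at an adjusted p alone, and of the 30 named differences that passed only 5 were kept (Rsad2, Ifit2, Gm14446, Gm9706 /// Isg15 and Cd22).

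Changes of sign occurred in genes that did not pass. Il1a (-0.17 to 0.31 with 1 array left out) went to -0.04 without D6-deficient day 1 replicate 2 and -0.17 without day 2 replicate 1. Il20 (-0.24 to 0.26) went to -0.02 with array weights, -0.01 without day 1 replicate 1 and -0.24 without day 2 replicate 1. Ccl22 (-0.38 to 0.04) went to 0.04 without day 1 replicate 1, and Ccbp2 to 0.06 with 1 value per gene.

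Over 2602 alternative values of the 164 named probe sets, 2331 kept their direction and side of the threshold, 255 no longer passed, 9 newly passed and 7 changed sign. Of 150 that passed, 13 were lost with the replicate block (besides those given above, Krt23, Serpinb6c, Fasn, Elovl6, Birc3, Nfkbia, Stat6 and Sele), 13 with the contrast's arrays alone, 3 with the control set as a covariate, 101 by the adjusted t-test and 35 without some 1 array. Apart from these and the counts given with their lists, the block changed no other call of the day 1 to day 2 change of a named gene that passed. The causes were not tested.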

Other observations

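Outside the gene lists, 68 further genes with a single symbol were called higher and 81 lower at day 2 of D6-deficient skin. Those named here were chosen from among them after their values were seen, for a known function, and larger changes were passed over. Slfn4, a myeloid Schlafen gene, rose by 4.02 (adjusted p = 1.6e-07) and Slfn1 by 2.83 (adjusted p = 6.0e-07). Olfm4, a glycoprotein of neutrophil granules and crypt cells, read 3.51, 3.50 and 3.39 at day 1, below the lowest mean kept for testing (3.72), and a mean of 6.97 at day 2 (adjusted p = 8.3e-08). Fetub, a secreted protease inhibitor, rose by 3.47 (adjusted p = 1.3e-04), and Prg4, lubricin, by 2.94 (adjusted p = 4.5e-05). Dsc2, a desmosomal cadherin, rose by 2.29 (adjusted p = 6.0e-07) and Upp1, uridine phosphorylase, by 2.30 (adjusted p = 3.3e-06).

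Among the genes called lower, Mycn, a proliferation factor, averaged 8.12 at day 1 and 4.80 at day 2 (9.98-fold lower, adjusted p = 7.8e-05). Slc39a8, a zinc importer, went from 8.96 to 5.65 (adjusted p = 7.4e-06) and Col11a1, a fibrillar collagen, from 7.47 to 4.16 (adjusted p = 4.7e-04). Wif1, a secreted Wnt inhibitor, went from 7.55 to 4.48 (adjusted p = 8.3e-05), Dlx3, a factor of hair and epidermal differentiation, from 8.64 to 6.21 (adjusted p = 9.8e-04) and Igfbp2, a binder of insulin-like growth factors, from 9.44 to 6.90 (adjusted p = 1.4e-06).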
